A study of Mus musculus with 27 samples.

Results

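A set of 10 genes that epithelial cells use were followed, Grhl2, Esrp1, Esrp2, Ovol2, Rab25, Ap1m2, Epcam, Krt8, Krt18 and Spint1, out of the 23604 genes of the expression table. They were chosen by symbol, with earlier comparisons of formative pluripotent stem cells (fPSCs) with mESCs and with EpiSCs in view, so their levels in those comparisons are given as a description with no test. The study derived mouse fPSCs, a stem cell state between naive and primed pluripotency, and measured RNA in 19 libraries, single cells of 4 clones, histone marks and DNA methylation. All 10 members were in the expression and single-cell tables and in the gene annotation used for the marks.

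All samples were labelled wild type. Of the lines named below, the paper describes 46C as carrying a Sox1-GFP reporter and BVSC as carrying Blimp1 and Stella reporters. It derives ROSAmTmG from ROSAmT/mG mice and follows its cells as tdTomato-positive. The mESCs (2 libraries) grew without feeders in N2B27 with 2i and LIF, the naive state. EpiLCs (2 libraries) were mESCs moved for a short time to N2B27 with KSR, Activin A and bFgf2, and Epiblastoids were mESCs held inside Matrigel in the same kind of medium for 2, 3 or 4 days, with 1 library each. EpiSCs (2 libraries), the primed state, grew with Activin A, bFGF2 and XAV939 on mitomycin C-treated mouse embryonic fibroblasts. The fPSCs grew with Activin A, bFgf2 and XAV939, also embedded in Matrigel. The line CMT was sampled at passages P1, P10, P20 and P30, the study's text naming the line, and a second deposit held 46C (P24), BVSC (P14), CMT again (P11, after freezing) and ROSAmTmG (P12). The second deposit was made with another library kit, so for 46C, BVSC and ROSAmTmG line and kit cannot be told apart, and CMT is in both deposits. Lines derived from the epiblast of E5.5 and E6.5 embryos, both at P10, had 1 library each. The 7 fPSC libraries from P10 on that came from mESCs are called the fPSCs below. No source says that libraries of a group came from separate cultures, so p-values measure only the spread between these libraries.

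Epithelial cells hold together through adherens and tight junctions, keep an apical and a basal side, and carry keratin filaments. Grainyhead-like and Ovol transcription factors keep this state, Esrp proteins splice RNA in the epithelial manner, and repressors of the Snail and Zeb families shut the same genes by binding the E-box CACCTG in their promoters. The epiblast is itself an epithelium, and its cells leave it by an epithelial to mesenchymal transition at gastrulation. In bulk RNA, fewer cells of a type and less RNA per cell cannot be told apart.

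The promoters of 5 members are shown because they hold the E-box, a choice made after the matches were seen. Each runs from 250 bases before to 50 bases after the RefSeq start site in GRCm38.p6, 5′ to 3′ on the gene's strand, with matches to CACCTG or its reverse complement CAGGTG in capitals, and in Rab25 also the match AACCTGTT. Ap1m2 lies at chr9:21312284-21312583 (minus strand), Rab25 at chr3:88548230-88548529 (minus), Epcam at chr17:87635729-87636028 (plus), Krt8 at chr15:102004293-102004592 (minus) and Krt18 at chr15:102027966-102028265 (plus).
Ap1m2: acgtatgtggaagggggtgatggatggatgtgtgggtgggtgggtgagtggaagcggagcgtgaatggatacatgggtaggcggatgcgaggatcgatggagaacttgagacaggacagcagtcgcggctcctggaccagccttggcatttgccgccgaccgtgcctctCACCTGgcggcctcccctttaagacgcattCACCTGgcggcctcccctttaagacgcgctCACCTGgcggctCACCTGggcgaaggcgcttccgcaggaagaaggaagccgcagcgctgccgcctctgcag
Rab25: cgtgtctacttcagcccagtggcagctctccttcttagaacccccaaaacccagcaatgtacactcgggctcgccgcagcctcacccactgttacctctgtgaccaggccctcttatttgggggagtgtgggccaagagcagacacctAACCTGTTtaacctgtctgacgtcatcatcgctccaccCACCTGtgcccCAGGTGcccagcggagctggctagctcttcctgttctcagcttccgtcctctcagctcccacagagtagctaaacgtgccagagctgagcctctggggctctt
Epcam: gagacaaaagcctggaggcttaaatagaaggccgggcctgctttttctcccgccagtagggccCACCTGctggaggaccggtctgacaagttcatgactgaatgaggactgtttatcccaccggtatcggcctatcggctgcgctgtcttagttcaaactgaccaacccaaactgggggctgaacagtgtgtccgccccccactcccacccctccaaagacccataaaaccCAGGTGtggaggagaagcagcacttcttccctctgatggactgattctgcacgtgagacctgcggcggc
Krt8: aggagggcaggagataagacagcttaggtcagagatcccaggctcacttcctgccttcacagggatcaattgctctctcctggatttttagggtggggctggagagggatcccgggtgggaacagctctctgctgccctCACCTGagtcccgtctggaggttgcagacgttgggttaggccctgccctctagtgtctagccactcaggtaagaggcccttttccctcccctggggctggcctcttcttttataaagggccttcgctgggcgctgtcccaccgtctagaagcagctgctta
Krt18: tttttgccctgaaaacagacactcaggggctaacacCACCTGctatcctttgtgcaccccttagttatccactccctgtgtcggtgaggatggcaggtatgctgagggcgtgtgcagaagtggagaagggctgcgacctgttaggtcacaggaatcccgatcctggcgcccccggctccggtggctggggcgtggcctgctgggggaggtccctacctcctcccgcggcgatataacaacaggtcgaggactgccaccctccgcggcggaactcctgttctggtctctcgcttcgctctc

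The promoter table matched 7 of the 10 members, all but Grhl2, Esrp1 and Esrp2. Ap1m2 held 4 E-boxes, whose first bases lay at -81, -51, -21 and -9 from the start site. Of the 32851 RefSeq mouse promoters of this length, 20.2% held at least 1 E-box, 2.88% at least 2 and 0.0548% at least 4. Rab25 had 2, at -64 and -53, and Epcam 2, at -187 and -19, whereas the keratin promoters had 1 each, at -111 in Krt8 and at -214 in Krt18. The promoters of Ovol2 and Spint1, the other 2 of the 7, had none. The Grainyhead motif AACCGGTT was in none of the 7 (0.146% of all promoters). With a free base, as AACNGGTT on either strand, a pattern that includes AACCGGTT, it matched Rab25 alone, at -102 (2.09% of all promoters). The Ovol motif CCGTTA was in none of the 7 on either strand (2.76% of all promoters). These are matches of letters only, and E-box matches do not show binding.

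**Figure D1:**
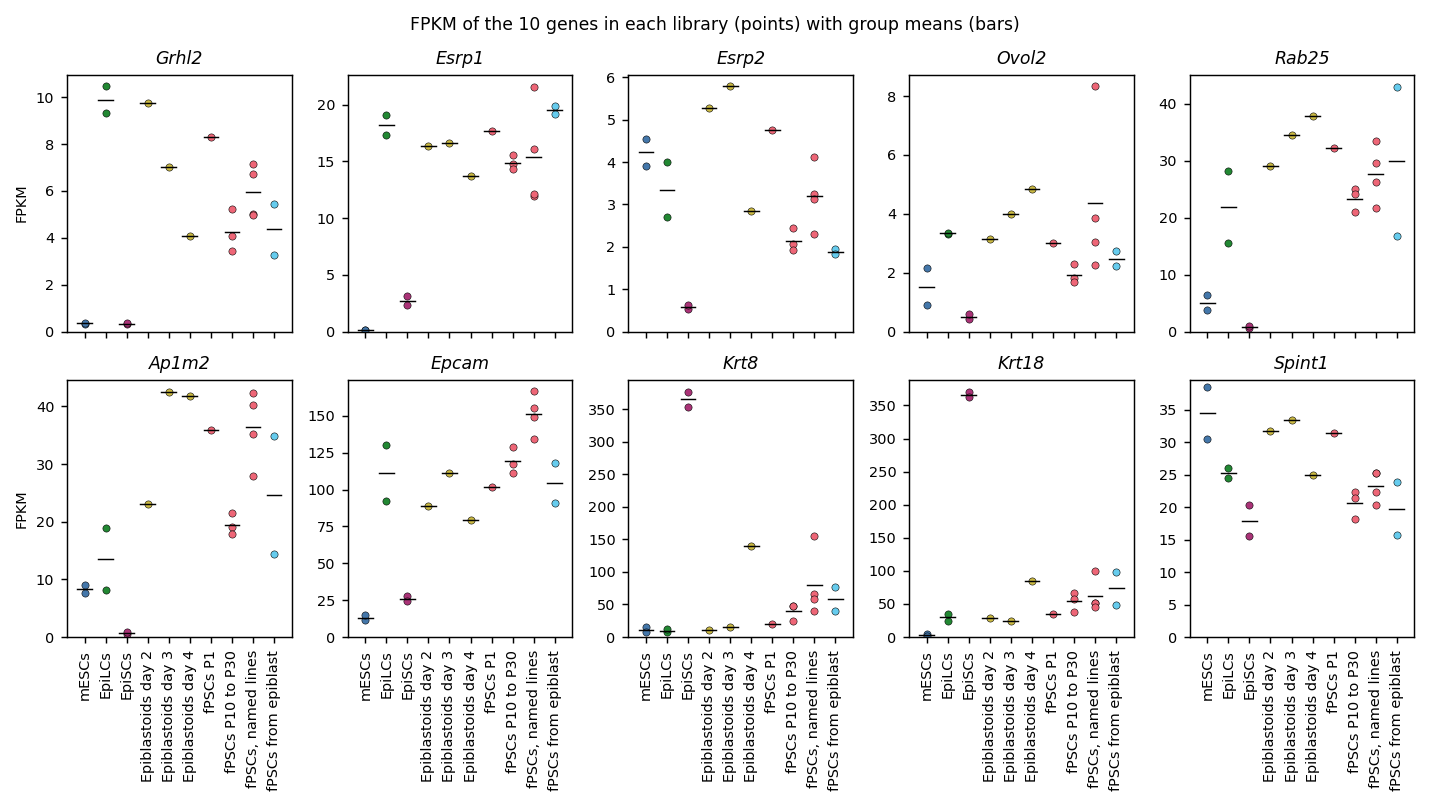
Level of each member in the 19 libraries, as FPKM on a linear axis, with 1 point per library and bars for group means. Grhl2 and Esrp1 stand above the mESC and EpiSC libraries in every EpiLC, Epiblastoid and fPSC library, whereas Krt8 and Krt18 are highest in the EpiSCs.

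Levels are FPKM, fragments divided by transcript length and library size, so genes can be set side by side, but the table holds no read counts and its depth is unknown. Among the transcription factors, Grhl2 (mm9 chr15:37162791-37293324, plus strand) was near the floor in mESCs, at 0.326 and 0.366 FPKM, and in EpiSCs, at 0.309 and 0.372. It was at 10.5 and 9.31 FPKM in EpiLCs and from 3.45 through a median of 5.03 to 7.14 in the 7 fPSC libraries. The level was thus high in EpiLCs, lower but present in each fPSC library, and low in both other stem cell states, whose ranges overlapped. Through the Matrigel culture it went from 9.75 FPKM on day 2 to 7.02 on day 3 and 4.07 on day 4, and in the fPSC line from 8.31 at P1 to 5.25, 4.06 and 3.45 at P10, P20 and P30, single libraries with no test. Ovol2 (chr2:144130911-144157882, minus strand), a zinc finger repressor of Zeb1, stayed low: 2.16 and 0.897 FPKM in mESCs, 3.33 and 3.34 in EpiLCs, 0.426 and 0.591 in EpiSCs, and 1.70 to 8.34 with a median of 2.29 in the fPSCs. Its fPSC range overlapped the mESCs and lay above the EpiSCs.

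The splicing regulators Esrp1 and Esrp2 ran apart. Esrp1 (chr4:11259080-11313930, minus strand) was at 0.0976 and 0.0942 FPKM in mESCs, 17.3 and 19.1 in EpiLCs and 2.30 and 3.11 in EpiSCs. The fPSCs ranged from 11.9 to 21.6 with a median of 14.8, a level close to that of EpiLCs, whose values lay inside the fPSC range. Esrp2 (chr8:108654219-108660874, minus strand) was already present in mESCs, at 3.91 and 4.55 FPKM, and in EpiLCs, at 2.69 and 4.01. It was lowest in EpiSCs, at 0.536 and 0.637 FPKM, and ranged from 1.94 to 4.12 in the fPSCs with a median of 2.44. Over the 19 libraries the 2 paralogs had a Pearson r of 0.15, against 0.94 for Esrp1 with Epcam. Libraries of a group share culture and deposit, so such an r is only a description.

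Rab25 and Ap1m2 serve traffic to the cell surface: Rab25 is a Rab11-family GTPase of apical recycling endosomes, and Ap1m2 is the epithelial mu subunit of the AP-1B adaptor, which sorts cargo to the basolateral side. Rab25 (chr3:88345951-88352222, minus strand) was at 3.69 and 6.43 FPKM in mESCs, 15.6 and 28.3 in EpiLCs, and 0.664 and 0.955 in EpiSCs. The fPSCs ranged from 20.9 to 33.5 with a median of 25.0. Ap1m2 (chr9:21099901-21116777, minus strand) was at 7.57 and 8.99 FPKM in mESCs, 8.19 and 18.8 in EpiLCs, 0.482 and 0.826 in EpiSCs, and 17.8 to 42.4 with a median of 27.9 in the fPSCs. Both were lowest in EpiSCs and higher in each fPSC library than in each mESC library, and their r over the 19 libraries, 0.95, was the highest of any pair of members.

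Epcam (chr17:88035319-88050446, plus strand), an epithelial cell adhesion molecule of the cell surface, was at 11.4 and 14.7 FPKM in mESCs, 92.4 and 129.96 in EpiLCs and 27.7 and 24.4 in EpiSCs, and in the fPSCs from 112 to 167 with a median of 134. Spint1 (chr2:119063098-119075263, plus strand), an inhibitor of the surface proteases matriptase and hepsin, ran the other way from the naive state: 38.4 and 30.5 FPKM in mESCs, 24.5 and 26.0 in EpiLCs, 15.5 and 20.3 in EpiSCs, and 18.1 to 25.3 with a median of 22.3 in the fPSCs. It was the member that varied least between the 4 states.

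Krt8 and Krt18, partners that form the keratin filaments of simple epithelia, behaved unlike the other 8. Krt8 (chr15:101827142-101834773, minus strand) was at 14.7 and 8.19 FPKM in mESCs, 7.02 and 11.7 in EpiLCs, and 353 and 376 in EpiSCs, and Krt18 (chr15:101858647-101862457, plus strand) was at 3.93 and 1.16, 24.3 and 35.1, and 369.9 and 363 in the same order. In the fPSCs Krt8 ranged from 24.6 to 155 (median 47.9) and Krt18 from 38.5 to 100.3 (median 51.7). Both keratins were highest in EpiSCs, the state in which Esrp2, Ovol2, Rab25, Ap1m2 and, by its mean, Spint1 were lowest. The start sites of this pair lie 23874 bp apart, head to head, and their r was 0.84 over the 19 libraries, while Krt8 with Esrp2 gave the lowest r of any pair, -0.70. RefSeq also lists a Krt8 pseudogene, and how reads shared with it were counted is not given in the sources used here.

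Set against mESCs, the fPSC mean was 158-fold higher for Esrp1, 23.0-fold for Krt18, 15.1-fold for Grhl2, 10.5-fold for Epcam, 5.48-fold for Krt8, 5.11-fold for Rab25 and 3.52-fold for Ap1m2. For these 7 each fPSC library lay above both mESC libraries. Spint1 lay below in each, by 1.56-fold, and Esrp2 and Ovol2 overlapped. Set against EpiSCs, the fPSC mean was 44.6-fold higher for Ap1m2, 31.9-fold for Rab25, 15.4-fold for Grhl2, 6.55-fold for Ovol2, 5.61-fold for Esrp1, 5.28-fold for Epcam and 4.68-fold for Esrp2, with no overlap. Krt8 and Krt18 lay below, by 5.82-fold and 6.25-fold, and Spint1 overlapped. Of all 12513 genes tested, limma called 17.3% higher and 23.0% lower in fPSCs than in mESCs, and 13.3% higher and 19% lower than in EpiSCs. Those are shares of limma calls, and the share of all genes without overlap was not counted. The contrasts with mESCs and EpiSCs also chose the members, so nothing is read from the counts. The choice holds least for Esrp2, Ovol2 and Spint1, which do not separate fPSCs from both other states.

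**Figure D2:**
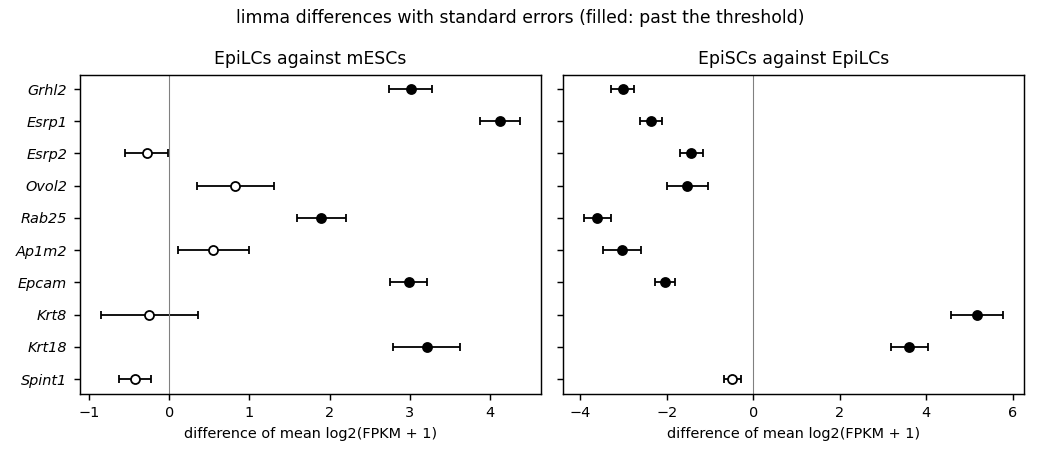
Difference of each member between groups as log2(FPKM + 1), with standard errors from limma, and filled points for those past the threshold. Esrp1, Krt18, Grhl2, Epcam and Rab25 rose from mESCs to EpiLCs, and 7 members fell while both keratins rose from EpiLCs to EpiSCs.

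The step from mESCs to EpiLCs was not used to choose the members, although the mESC libraries were. Esrp1, Krt18, Grhl2, Epcam and Rab25 rose, and none of the 10 fell. On the log2(FPKM + 1) scale, which understates the change of low genes, Esrp1 rose by 4.13 (SE 0.25, adjusted p = 8.57e-08, limma with Benjamini-Hochberg adjustment over all genes, as for each adjusted p), Krt18 by 3.21 (SE 0.42, 8.26e-05), Grhl2 by 3.01 (SE 0.27, 2.62e-06), Epcam by 2.99 (SE 0.23, 8.10e-07) and Rab25 by 1.90 (SE 0.31, 4.30e-04). A call needed an adjusted p under 0.05 and a 1.5-fold change, which 29.6% of the 12513 genes met, 12.2% as higher and 17.4% as lower. Against that, 5 of 10 members were higher, with a median difference of 1.36 against -0.06 over all genes tested. The mESC libraries stood in a contrast that chose the members, so the rises are not independent of that choice. The count and median are therefore not read as support. The other 5 did not pass: Ovol2 differed by 0.82 (adjusted p from limma = 0.222), Ap1m2 by 0.55 (0.395), Krt8 by -0.25 (0.804), Esrp2 by -0.28 (0.479) and Spint1 by -0.43 (0.130).

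The other genes of the epithelial state, a list of 41 of which 36 were tested, moved in both directions in that step, with 10 higher, 10 lower, 16 not past the threshold and a median of 0.02. Of the members' relatives, Grhl1 rose by 1.64 (adjusted p = 3.88e-06, limma) while Grhl3 fell by 3.34 and the epithelial factor Elf3 by 3.67. Grhl1 did not pass the filter when the fPSC groups were fitted alone. The filter can let it in through the EpiLC libraries, so its rise is not read as support. Among 20 adhesion and junction genes, 7 rose and 5 fell: Lsr of tricellular junctions rose by 3.25, the tight junction scaffold Cgn by 2.45 and the desmosomal Pkp2 by 1.92, and the desmosomal Dsp fell by 2.14. The E-cadherin gene Cdh1 differed by 0.26 (adjusted p = 0.395, limma). Krt19, a further simple keratin, fell by 2.34. Of 6 repressors of epithelial genes, only Zeb1 passed, lower by 1.62.

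From EpiLCs to EpiSCs, 9 of 10 members changed, where 35.9% of all genes tested passed (20.4% higher and 15.5% lower). The median difference of the members was -1.78, against -0.03 over all genes tested. Rab25 fell by 3.61 (adjusted p = 1.61e-06, limma), Ap1m2 by 3.04 (1.80e-04), Grhl2 by 3.02 (2.34e-06), Esrp1 by 2.38 (1.25e-05), Epcam by 2.03 (2.39e-05), Ovol2 by 1.53 (0.0250) and Esrp2 by 1.44 (0.00119). Krt8 rose by 5.18 (SE 0.61, 2.90e-05) and Krt18 by 3.60 (SE 0.42, 2.93e-05). Spint1 differed by -0.48 (0.0759). The Ovol2 call was lost in each of the 4 fits that left out 1 of these libraries, with an adjusted p of 0.0840 to 0.108, and with no filter on low values (0.0630). The EpiSC libraries also stood in a contrast that chose the members, so the falls are not independent of that choice.

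The other 36 epithelial genes gave 7 higher and 13 lower in EpiSCs than in EpiLCs. Of 20 adhesion and junction genes, 9 fell and 3 rose: Crb3, an apical polarity gene, fell by 2.74 and Cdh1 by 2.71, whereas Perp rose by 2.67 and Dsp by 1.93. All 3 genes of the matriptase pathway were lower, Spint2 by 1.86, the matriptase gene St14 by 1.39 and Prss8 by 1.13. Krt19 rose by 4.57 (adjusted p = 8.95e-05, limma), together with Krt8 and Krt18. Of 6 repressors, 5 were higher: Snai1 by 2.96, Zeb2 by 2.47, Twist2 by 2.27 and Zeb1 by 2.06 among them. Only 1 of the 6 passed the filter when the fPSC groups were fitted alone. The filter can let such genes in through the EpiSC libraries, so the count is not read as support. The mesenchymal genes Vim and Fn1 were higher by 4.65 and 3.85.

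EpiSCs grew on fibroblasts, and some fibroblast markers moved with these results. Over the whole list of 10 genes the summed level was 256 to 344 FPKM in EpiSCs, 19.3 to 21.4 in EpiLCs and 7.69 to 13.7 in the 7 fPSC libraries. Of 8 tested, 6 were higher in EpiSCs than in EpiLCs, 1 was lower and 1 did not pass, and none of the 10 was at 0 in EpiSCs. In that fit Col1a1, Col3a1 and Fbn1 reached 1 FPKM in the EpiSC libraries alone. The filter thus let them in through the group where they were high, so this count is not read as support. Col1a1, a collagen of fibroblasts, had a mean of 132 FPKM in EpiSCs and 0.356 in EpiLCs. Most of the EpiSC sum was Col1a1, Col1a2 (72.6 and 102 FPKM) and Mmp2 (46.3 and 63.8). Dcn went the other way, at 2.82 and 1.88 FPKM in EpiSCs against 4.48 and 6.10 in EpiLCs. Thy1 was at 4.63 and 4.01 FPKM against 4.14 and 4.38, and Lum and Postn stayed under 1 FPKM. The summed level of 6 trophoblast markers, Krt7 among them, was 37.9 to 63.0 FPKM in EpiSCs and 1.16 to 1.38 in EpiLCs, most of it Hand1 in the EpiSCs at 32.7 and 56.8 FPKM, and that of 5 pluripotency genes was 549 to 618 FPKM in EpiSCs and 1534 to 1948 in EpiLCs. Their part in the keratin, repressor and other EpiSC results was not tested. Visceral endoderm markers summed to 0.896 to 1.30 FPKM over 8 genes in EpiSCs.

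Among the fPSCs, the named lines of the second deposit were compared with P10 to P30, a contrast that the choice of members did not use. Ap1m2 alone passed of the 10, higher by 0.86 (SE 0.26, adjusted p = 0.0232, limma), where 29.2% of 11074 genes passed (20.4% higher and 8.79% lower). The median of all genes in this contrast was 0.19, and relative to it Ap1m2 was higher by 0.67. Its 4 values were 27.9 to 42.4 FPKM in the named lines and 17.8 to 21.6 at P10 to P30, without overlap. Within the line CMT it was at 35.2 FPKM in the second deposit (P11) and at 17.8 to 21.6 in the first (P10 to P30). The call rests on single libraries: it was lost without BVSC, without ROSAmTmG, without P10, without P30, and with CMT P11 as the only named line (limma, adjusted p = 0.206), with differences of 0.78 to 0.98 when 1 library was left out. Ovol2 (0.76, 0.0722), Krt8 (0.85, 0.143), Grhl2 (0.41, 0.119), Esrp2 (0.40, 0.0716) and Epcam (0.34, 0.0543) had positive differences that did not pass, given with their adjusted p from limma.

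Between lines made from E5.5 and E6.5 epiblast and P10 to P30, limma called 0 of 10 members, with 0 at an unadjusted p under 0.05, where 0.894% of all genes passed (0.415% higher and 0.479% lower). Differences ran from -0.20 (SE 0.15) for Epcam to 0.53 (SE 0.52) for Krt8, and the SE of Krt8 was the largest of the 10. Grhl2 was at 5.44 and 3.28 FPKM, Esrp1 at 19.2 and 19.9, and Epcam at 118 and 91.0, all above mESCs and EpiSCs. Set against mESCs, both epiblast lines lay above for 8 members and below for 2, Esrp2 (1.94 and 1.84 FPKM) and Spint1 (23.9 and 15.6), where the 7 fPSC libraries overlapped for Esrp2 and Ovol2. Set against EpiSCs they lay above for 7, below for 2 and overlapped for 1. The share of all genes that separate in this way was not counted, so nothing is read from these numbers. Rab25 was at 43.0 and 16.7 FPKM in the E5.5 and E6.5 lines, and Ap1m2 at 34.8 and 14.4.

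The keratins stood apart late in the Matrigel culture, where Krt8 was at 11.4 FPKM on day 2, 15.1 on day 3 and 140.2 on day 4, and Krt18 at 29.2, 24.8 and 84.8. From day 3 to day 4 both passed a 2-fold rise, 2 of 10 members, where 7.85% of genes did and 8.22% fell 2-fold. None of the 10 changed 2-fold from day 2 to day 3, where 3.11% of genes rose and 2.47% fell that far. The other 8 stayed within 2-fold from day 3 to day 4, with log2 ratios of -0.82 for Esrp2, -0.66 for Grhl2 and -0.48 for Epcam. Other genes of the epithelial and mesenchymal states moved in the same interval. The simple keratins Krt19 and Krt7 went from 0.934 to 9.14 and from 0.236 to 4.03 FPKM. Of 20 adhesion and junction genes at 1 FPKM on either day, 1 rose 2-fold, Dsp from 1.07 to 11.7, and 4 fell, Cldn4 from 19.5 to 2.81 among them. Elf3 went from 4.09 to 24.4 FPKM. All 3 mesenchymal genes rose past 2-fold, the matrix gene Fn1 from 7.71 to 319 FPKM, the N-cadherin gene Cdh2 from 1.46 to 58.8 and Vim from 22.9 to 61.9, and of 2 repressors at 1 FPKM, Snai1 rose from 2.41 to 32.2. With 1 library a day there is no replicate check.

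**Figure D3:**
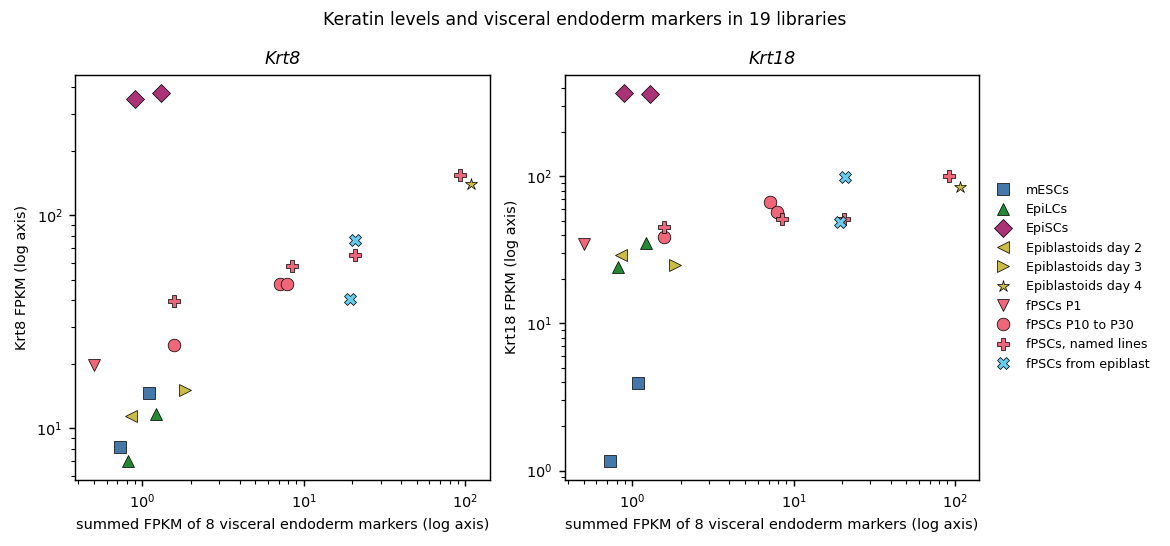
Krt8 and Krt18 FPKM against the summed FPKM of a list of 8 visceral endoderm markers, both on log axes, with 1 symbol per library, shaped and coloured by cell state. Epiblastoids on day 4 and the 46C line stand at the upper right, while the EpiSCs have the highest keratin levels at marker sums of 1.30 or less.

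Some markers of visceral endoderm, an epithelium that carries these keratins, moved with Krt8 in those libraries. Their sum over 8 genes was 1.83 FPKM on day 3 and 108 on day 4. Almost all of that came from the endoderm factors Sox17, which went from 0.145 to 68.7 FPKM, and Gata6, from 0.0845 to 38.4. The defining serum protein genes were not part of it: Afp and Ttr were at 0 on day 4, Apoa1 at 0.349 and Apoa4 at 0.0607. Sox17 and Gata6 are used by other cells as well. Trophoblast markers went from 0.836 to 26.8 FPKM, with Hand1 at 16.1 on day 4.

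Among the 7 fPSC libraries the sum was 92.6 in 46C, the line with the highest Krt8 (155 FPKM) and Krt18 (100.3), then 20.6 in CMT P11 (Krt8 65.3), 8.47 in BVSC (58.2), 7.85 at P20 (47.9), 7.11 at P10 (47.7) and 1.57 in both ROSAmTmG (39.8) and P30 (24.6). Krt8 thus ran in the order of the marker sum over the 7 libraries, except between the last 2. There P30 had a slightly higher sum than ROSAmTmG (1.5699 against 1.5674) and a lower Krt8. Krt18 did not follow the order: the levels next below 46C were 66.9 FPKM at P10 and 57.1 at P20, above CMT P11 (51.7) and BVSC (51.0). The lines from epiblast did not follow the order either, with Krt8 at 76.9 and 40.4 FPKM at sums of 20.8 and 19.3 in the E5.5 and E6.5 lines. In 46C the sum held Sox17 at 50.6 FPKM, Gata6 at 21.8 and Apoa1 at 16.9, while Ttr was at 0.898 and Afp at 0. In the EpiSCs, where both keratins were highest, the sum was close to the 0.725 to 1.09 FPKM of the mESCs. The part of such cells in the keratin levels was not tested.

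In the comparisons that chose the members, the other 36 epithelial genes were tested. Against mESCs, fPSCs had 11 higher and 13 lower of 36, where limma called 40.3% of all genes, with a median of -0.05. Lsr was higher by 3.68, Cgn by 2.31, Marveld3 by 1.87 and Prss8 by 1.59. Elf3 was lower by 4.37, the claudin gene Cldn4 by 4.19 and Grhl3 by 2.68. Cdh1 differed by 0.08 (adjusted p = 0.722, limma). Against EpiSCs, 12 of 36 were higher and 8 lower, where 32.3% of all genes passed, with a median of 0.03: Crb3 was higher by 3.02, Cdh1 by 2.53, Marveld3 by 2.07 and Rbm47, a splicing regulator, by 1.95, while Krt19 was lower by 3.05, Rbfox2 by 1.74 and Jup by 1.71. The matriptase genes Spint2, St14 and Prss8 were all higher, by 1.74, 1.30 and 1.05. Of 6 repressors, 5 were lower in fPSCs than in EpiSCs, Twist2 by 2.44, Snai1 by 2.40 and Zeb2 by 2.12 among them. Only 1 of the 6 passed the filter in the fit of the fPSC groups alone. Most thus entered this test through libraries of other states, and the count is not read as support. Without EpiSC replicate 2 the 20 changed genes of 36 became 13. Some fibroblast markers were high in the EpiSCs, as given above, and their part in these differences was not tested.

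The 5 genes most like Grhl2 over the 19 libraries, of 7825 compared by Pearson r of log2(FPKM + 1), were Kcnk1 (r = 0.971), Tmem54 (0.944), Tmem30b (0.944), Galnt3 (0.929) and Ccna2 (0.924). Kcnk1, a potassium channel gene, was at a mean of 6.96 FPKM in mESCs, 46.6 in EpiLCs, 6.99 in EpiSCs and 38.2 in fPSCs. Among the genes closest to the mean profile of the 10 members were Otx2 (0.944), a transcription factor of the formative and primed epiblast, Ripk4 (0.920), Kcnk1 (0.917) and Khk (0.916). Otx2 was at 14.7 FPKM in mESCs, 51.2 in EpiLCs, 12.0 in EpiSCs and 61.5 in fPSCs. The members were chosen with contrasts of these fPSCs in view, so likeness to a formative gene is not independent of that choice. The mean profile also joins members that ran apart, such as Esrp2 and Krt8 (r = -0.70).

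**Figure D4:**
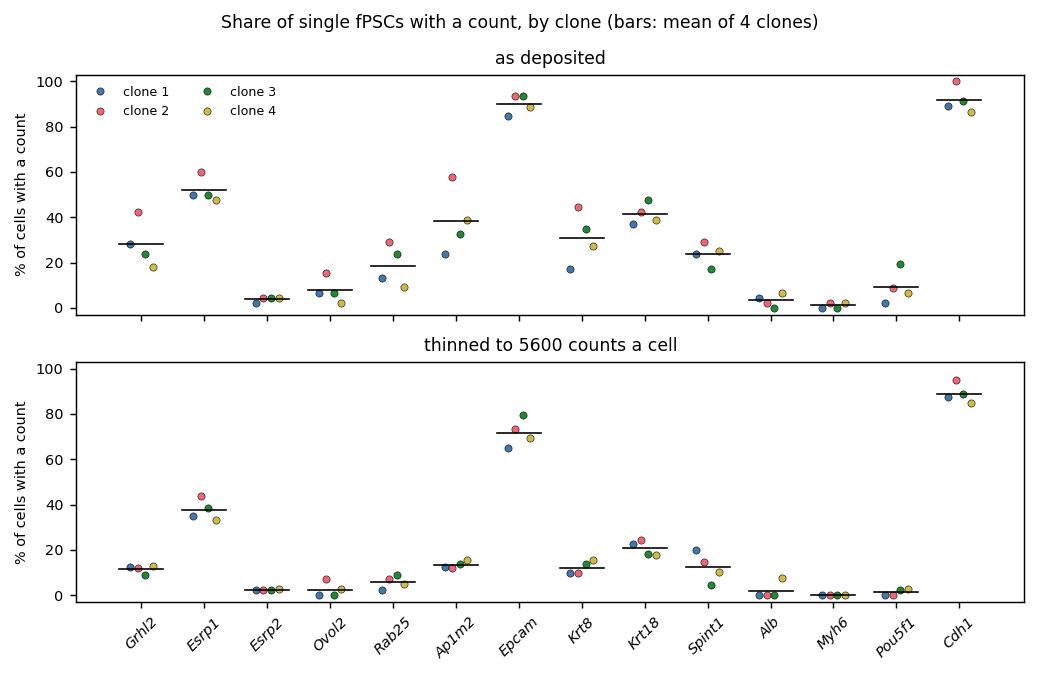
Percent of single fPSCs with at least 1 count of each member in each of 4 clones, with 4 other genes for reference. Shares are given as deposited and, for cells with at least 5600 counts, after thinning to that number, with 1 point per clone and bars for their mean. Epcam is in most cells, and Esrp2 and Ovol2 are near the level of the liver gene Alb.

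In single cells, 181 fPSCs of 4 clones had at least 500 genes, with median counts per cell of 19078 to 33883. Epcam was found in 90.1% ± 4.17 of cells (SD, n = 4 clones) at 296 ± 23.5 CPM (counts scaled to the clone's total), Esrp1 in 51.9% ± 5.48 at 95.6 ± 33.6 and Krt18 in 41.4% ± 4.81 at 72.7 ± 24.4. Ap1m2 followed at 38.2% ± 14.4, Krt8 at 31.0% ± 11.5, Grhl2 at 28.1% ± 10.3, Spint1 at 23.8% ± 4.78 and Rab25 at 18.7% ± 9.23. Ovol2 at 7.72% ± 5.60 and Esrp2 at 3.88% ± 1.14 lay near the liver gene Alb, at 3.35% ± 2.92 in the same cells, and above the heart gene Myh6 at 1.12% ± 1.30, so neither is read as expression. Thinned to 5600 counts a cell, the shares were 71.7% for Epcam, 37.7% for Esrp1, 20.8% for Krt18, 13.4% for Ap1m2, 12.4% for Spint1, 12.2% for Krt8, 11.7% for Grhl2, 6.01% for Rab25, 2.47% for Ovol2, 2.44% for Esrp2 and 1.92% for Alb. Most shares therefore depend on depth, though the cells are not all the same. Cells under 5600 counts were left out of the thinned shares, which left 40, 41, 44 and 39 cells in clones 1 to 4. Before thinning, Pou5f1, the pluripotency factor, had a count in only 9.36% ± 7.36 of cells, so a low share in this table does not show low expression.

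Cells held a median of 3 of the 10 members, from 0 to 9, and 8 of 181 had none. That number followed the counts per cell within clones, with r between 0.39 and 0.72. Of the 2 keratins, 33 cells had a count of both, 23 of Krt8 alone, 42 of Krt18 alone and 83 of neither. Esrp1 was found with Epcam in 87 cells and without it in 7, and Rab25 with Ap1m2 in 21 and without it in 13. Epcam had a count in 163 of the 181 cells and Ap1m2 in 69. Whether the pairs met more often than those shares give was not tested. The clones of a table share 1 sample, and 1 cell name was listed with 2 sets of values.

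**Figure D5:**
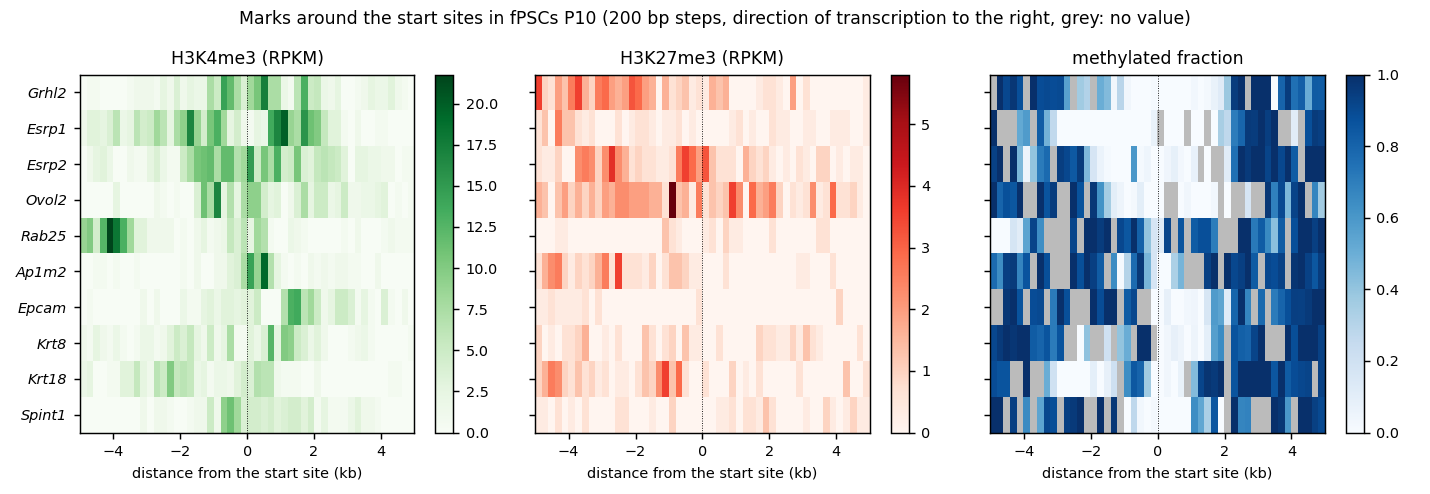
H3K4me3 and H3K27me3 as RPKM and the methylated fraction of CpG, as colour, against distance from the start site in kb for each member in fPSCs at P10, in steps of 200 bp with grey for no value. Grhl2 and Esrp2 carry high H3K4me3 at an unmethylated start, and the highest H3K4me3 near Rab25 lies 4100 bp upstream of it.

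Promoters were read in fPSCs at P10, 1 file a mark with no replicates shown, around the 5′ end of each gene in mm9. H3K4me3, a mark of active and poised promoters, was above the median of all promoters at each of the 10 over 5000 bp each side: Esrp1 had 5.32 RPKM (the 99.5 percentile of 22072 promoters), Esrp2 4.56 (98.7), Grhl2 3.46 (95.1), Rab25 3.17 (93.1) and Ovol2 2.79 (89.2). Krt8 had 2.33 RPKM, Epcam 2.26, Krt18 2.11, Spint1 1.98 and Ap1m2 1.65, against a median of 1.13 over all promoters. The signal behind Rab25 sat away from its start. Its highest step of 200 bp, at 21.8 RPKM, was at -4100 bp, and the nearest other start is that of Lamtor2, 4774 bp upstream. The highest step was within 1000 bp of the start at Grhl2, Esrp2, Ovol2, Ap1m2, Krt8 and Spint1, at 1100 bp in Esrp1 and at 1500 bp in Epcam, inside the genes, and at -2300 bp in Krt18. Within 1000 bp Rab25 stood at the 60.8 percentile, Epcam at 46.7 and Grhl2 at 94.9.

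H3K27me3, the Polycomb mark, was highest at the transcription factors and at Esrp2: 1.44 RPKM at Ovol2 (89.2 percentile), 1.06 at Grhl2 (83.5) and 1.01 at Esrp2 (82.5), against a median of 0.379. It was lowest at Rab25 (0.15, from 23 reads) and Epcam (0.11, from 17 reads). At Ovol2 both marks had their highest step at the same place, -900 bp, with 16.8 RPKM of H3K4me3 and 5.81 of H3K27me3. Esrp2 had 14.9 RPKM of H3K4me3 and 3.23 of H3K27me3 at +100 bp, and its highest H3K27me3 at -2700 bp. At Grhl2 the marks lay apart: its highest H3K27me3, 3.55 RPKM, was at -4900 and -3700 bp, where no H3K4me3 was read, and its highest H3K4me3, 17.4 RPKM, at +500 bp, where H3K27me3 was at 1.29. In bulk chromatin 1 allele with both marks cannot be told apart from a mixture of cells. CpG methylation within 1000 bp was 0.00 to 0.06 as a fraction at Esrp1, Grhl2, Spint1, Ovol2 and Esrp2, 0.14 at Epcam, 0.25 at Krt8, 0.30 at Krt18, 0.41 at Ap1m2 and 0.62 at Rab25. The median promoter was at 0.357, and 32.6% lay under 0.2. Rab25 and Ap1m2 were the most methylated members over that window, yet low next to the start. At Ap1m2 the fraction was 0 at +100 and +300 bp and 0.165 at -100 bp. At Rab25 it was 0.165 at -100 and 0.12 at +100 bp, against 0.81 at -500 and 0.915 at +300 bp. At the same passage, P10, Rab25 was at 20.9 FPKM. In the 300 bases printed above, Krt8 had 6 CpG and Rab25 9, near the median of 7 over all promoters, whereas Ap1m2 had 23, Spint1 28 and Ovol2 25.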

How the data were processed

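The authors deposited bulk RNA-seq as FPKM per gene for 19 libraries, made from reads trimmed with cutadapt, aligned with TopHat2 and summarised with Cufflinks, for which the submitters' processing notes name cutadapt 1.11, TopHat2 2.1.1 and Cufflinks 2.1.1, in mm9. Single-cell counts per gene were deposited by the authors in 2 tables of 2 clones each, with 46, 46, 46 and 44 cells, and 181 cells with at least 500 genes were used. The primers carry molecular tags, and whether counts were collapsed by tag is not given in the sources used here. The authors deposited H3K4me3 and H3K27me3 as RPKM in 100 bp bins and DNA methylation as the methylated fraction in 100 bp windows, in fPSCs at P10. Replicate samples are listed for each mark and for methylation. The paper states that ChIP replicates were combined once their reproducibility had been checked. Whether each deposited file is pooled, and its line, are not given in the sources used here. Dividing the summed RPKM by the smallest value gave 8066000 and 15590800 reads for the 2 marks.

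FPKM were tested with limma 3.58.1 (trend, R 4.3.3) on log2(FPKM + 1), leaving out genes that reached 1 FPKM in fewer than 2 libraries, with Benjamini-Hochberg adjustment over all genes tested, a call at an adjusted p under 0.05 and a 1.5-fold change. The first fit (12513 genes) covered the 3 other stem cell states beside the 7 fPSC libraries, and the second the fPSC groups (11074 genes). The FPKM table holds no counts, so depth is unknown, and totals were 307394 to 414727 FPKM over 23604 genes after 4 rows with repeated gene symbols were left out. Total single-cell counts were 1501395 to 4712214 per clone. Scripts were tested on simulated data. Other work used Python 3.11.15 with pandas 2.3.3, numpy 2.4.6 and matplotlib 3.10.9.

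The members and all gene lists were chosen with earlier results of these data known. Beside the 10 members, the text names from each list up to 4 genes with the largest change past the threshold and up to 2 past none with the highest mean FPKM, and some of these are left out. The genes most like a profile were the 5 with the highest r among genes that reached 10 FPKM in any library, of which 1 is not reported here. Alternatives were the pseudocount, the filter, upper-quartile scaling, the samples fitted, each library left out, cell filters and windows. Marker lists were fibroblast, visceral endoderm, trophoblast and pluripotency genes.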

Additional observations from a re-analysis of the deposited data

Results flagged for a closer look

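Of 48 groups of 4 to 10 values, 8 had 1 value far from the others by Dixon's test at the 95% level. For separate groups of normal values that level gives about 1 in 20. The groups here share libraries, so 8 of 48 is not read as an excess over chance. In 6 of the 8 the value was that of the fPSC line 46C at P24. Among the 7 fPSC libraries it held the highest Krt8, at 155 FPKM against 65.3 in the next library, the highest Ovol2, at 8.34 against 3.85, and the highest Esrp1, at 21.6 against 16.04. Among the 4 named lines it held the highest Krt18, at 100.3 FPKM against 51.7. Its summed visceral endoderm markers, 92.6 FPKM against 20.6, and trophoblast markers, 8.85 against 2.54, also stood apart. The first sum was chiefly Sox17, Gata6 and Apoa1, with Afp at 0, and the second chiefly Krt7, at 6.12 FPKM. Their part in the keratin, Ovol2 and Esrp1 values was not tested.

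In single cells, Ovol2 was at 20.4 CPM in clone 2 against at most 2.00 in the other 3 clones. A single cell held 40 of the 66 Ovol2 counts of clone 2, and the other clones had 3, 3 and 1 counts in all. Esrp2 was in 2.17% of the cells of clone 1 against 4.35% to 4.55% in the others, a share at the level of background in each clone.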

How the results depend on the processing

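The counts of members past the threshold were 5 from mESCs to EpiLCs, 9 from EpiLCs to EpiSCs, 1 between the named lines and P10 to P30 and 0 for the epiblast lines. With 1 library left out they were 5 in each fit, 8 in each fit, 0 to 1 and 0 in each fit, and the other epithelial genes past it were 19 to 21 in place of 24 against mESCs and 13 to 14 in place of 20 against EpiSCs. A lone library left in a group was assumed to vary like the others. In the same fits the calls over all genes fell from 3706 to as few as 2291 for EpiLCs against mESCs, from 4488 to 2425 for EpiSCs against EpiLCs, from 4041 to 1523 for fPSCs against EpiSCs, and from 99 to 32 for the epiblast lines. The 1 member of the named lines, Ap1m2, was lost with no filter and with CMT P11 alone (0 of 10 each), where calls over all genes were 1243 against 3233, and without ROSAmTmG it was replaced by Ovol2. The median share of cells per member was 30.1% as deposited, 20.2% with at least 2 counts and 12.5% after thinning. The members' median percentile went from 85.8 to 79.9 for H3K4me3 within 1000 bp and from 18.6 to 28.1 for methylation within 500 bp.

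Differences that changed sign were all of members that did not pass in the comparison concerned. Between named lines and P10 to P30, Esrp1 was -0.020 with upper-quartile scaling and -0.16 to 0.11 with 1 library left out, and Krt18 was -0.030 with CMT P11 alone and -0.10 to 0.32 with 1 left out. From mESCs to EpiLCs, leaving out 1 library gave -0.010 to 1.10 for Ap1m2 and -0.64 to 0.14 for Krt8. For the epiblast lines it gave -0.28 to 0.31 for Grhl2, -0.45 to 0.86 for Rab25, -0.41 to 0.81 for Ap1m2, -0.11 to 0.89 for Krt18 and -0.37 to 0.21 for Spint1.

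With the replicate number as a block (replicate block), 6 members passed from mESCs to EpiLCs, Ovol2 being added (adjusted p = 0.0425, limma), and 9 from EpiLCs to EpiSCs, with 4107 and 5196 calls over all genes. Deviations of same-numbered libraries correlated at 0.208, -0.203 and -0.138 over 12185 genes. With 2 libraries a group such an r cannot show whether they are paired, and the labels give only a number. With the EpiSC numbers crossed, a pairing chosen after seeing the data, the calls were 4814 and 5832. The FPKM hold no depth, and with 2 libraries in most groups the spread is estimated from few values.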
